A study of Homo sapiens with 16 samples.

Results

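Dendritic cells take up antigen, carry it and present it to T cells, and they fall into kinds that use different genes. Conventional type 1 dendritic cells (cDC1) depend on the transcription factor Batf3, carry the chemokine receptor Xcr1 and the dead-cell receptor Clec9a, and are known for presenting tumor antigen to CD8 T cells. Conventional type 2 cells (cDC2) include cells with the lectin Cd209a, mature dendritic cells that leave tissue carry the chemokine receptor Ccr7 and the actin-bundling protein Fscn1, and plasmacytoid dendritic cells (pDC) carry the receptor Siglech. Flt3 is the receptor for the growth factor that expands dendritic cells, Zbtb46 is a transcription factor of conventional dendritic cells, and Itgae is the integrin CD103 of cDC1 and of T cells that lodge in epithelium.

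The levels of these 10 genes, of the 32285 in the tables, are described here in mouse mammary tumors by deposited cluster label. They were chosen with their levels by label and the cells that hold pairs of them already known, and were measured as UMIs (unique molecular identifiers, 1 per captured RNA molecule), summed over the cells of a label and given per 1000000 UMIs (CPM). Because measured levels chose the genes, and because the values below come from the cells that those genes pick out, the levels are a description and carry no test.

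The tumors, LPA1-T22 and LPA1-T127, called T22 and T127 here, arose in mice with a transgene for the LPA1 receptor in mammary epithelium. Chunks of 25 mm3 were transplanted into the mammary fat pads of female FVB mice aged 6 weeks, and the mice received vehicle or olaparib, an inhibitor of the DNA repair enzyme PARP, at 50 mg/kg daily. In the short-term experiments, mice with T22 alone or T127 alone were treated for 4 or 8 days. Long-term mice carried T22 on both sides, T127 on both sides or 1 tumor of each on opposite sides. They were treated for 20 days. T22 was placed 14 days before T127. By the labels, mice entered treatment groups 14 days after a T22 transplant and 10 days after a T127 transplant, with no experiment named. The study's text gives 1 interval for both models of the short-term experiments. The start of treatment in mice with both models is not given in the sources used here. Each model is 1 transplanted tumor line in 1 mouse strain. The organism field of the labels reads Homo sapiens, but the animals are mice and the gene symbols are those of the mouse.

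Cells of tagged tumors were mixed before capture, in 8 long-term, 4 short-term T22 and 4 short-term T127 pools. No file used here ties a cell to its tumor, mouse or treatment. Vehicle and olaparib, 4 and 8 days, and mice with 1 model and with both models therefore cannot be compared here. Each experiment counts as 1 sample, since which tumors each of its pools holds is not given in the sources used here. The tumor model cannot be told apart from other differences between the experiments. Intervals given below are exact at the 95% level and cover counting error only.

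Of 53946 deposited cells, 48824 were counted: 25723 long-term, 15094 short-term T22 and 8007 short-term T127. Pool totals ran from 34755906 to 55600377 UMIs, with median UMIs per cell of 3105 to 11712 in long-term, 7730 to 8528 in short-term T22 and 22712 to 26017 in short-term T127 pools. Long-term pools 1 and 2 shared 3939 cell barcodes, pools 1 and 3 shared 987 and pools 2 and 3 shared 1082, and each of the remaining 117 pool pairs had 0 to 11 in common. The deepest copy of each shared long-term barcode was kept and 5122 copies, with a median of 1741.5 UMIs, were left out. Of 4146 shared long-term barcodes, 2774 carried different labels in different copies, so the labels of single cells are uncertain in these pools. For long-term pools 4 to 8 alone, which did not share barcodes in this way, the shares of cells with both genes of a pair are given below. Long-term pools 1 to 4 also stood apart from pools 5 to 8 in their makeup, without overlap in the share of cells for 8 of 22 labels. B cells were 0.152% to 0.811% of cells in pools 1 to 4 and 1.62% to 2.50% in pools 5 to 8, CD14-IL1B 0.780% to 1.67% and 1.85% to 2.64%, pDC 0.357% to 0.608% and 0.704% to 0.917%, and the malignant label Malign_1 9.67% to 10.9% and 3.32% to 4.61%. Whether these pools hold different tumors is not given in the sources used here, and several long-term values below are also given for each set of 4 pools.

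In all 3 experiments, Xcr1 was concentrated in cells that the authors had labelled CD14-IL1B, a monocyte name. In the long-term experiment Xcr1 in that label ran from 109 CPM in the lowest pool through a median of 197 to 297 in the highest, and the sum over pools was 186 CPM (interval 176 to 197), with 239 CPM in pools 1 to 4 and 160 CPM in pools 5 to 8. No other long-term label passed 3.80 CPM, the level in CD14-PF4, and the pool ranges of CD14-IL1B and CD14-PF4 did not overlap. In short-term T22 the 4 pools gave 472, 591, 593 and 648 CPM, and in short-term T127 they gave 297, 461, 246 and 281 CPM. CD14-IL1B held 81.6% of all long-term Xcr1 UMIs, 59.4% of those in short-term T22 and 94.4% of those in short-term T127. Malignant cells, which should lack the gene, gave a comparison for free RNA: 0.0356% of 2809 long-term Malign_0 cells had a UMI of Xcr1 at a median of 19775 UMIs per cell, against 36.1% of 446 CD14-IL1B cells at a median of 13061.

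The genes of the monocyte name were present in that label but did not lead in it. In the long-term experiment CD14-IL1B ranked 5 among 21 labels for Cd14, a monocyte co-receptor, and 5 for Il1b, a monocyte cytokine, but 1 for Ccl17, a chemokine of dendritic cells, and 2 for Irf8, a transcription factor of cDC1 and pDC. In short-term T22 it ranked 7 among 17 labels for Cd14 and 7 for Il1b, and 1 for Ccl17, Ccl22 and Irf8. In short-term T127 it ranked 6 among 14 labels for Cd14, 4 for Il1b and 3 for Irf8, and 1 for Ccl17, Ccl22 and the class II gene H2-Ab1. For H2-Ab1 it ranked 2 long-term and 4 in short-term T22, and for Ccl22 it ranked 2 long-term. In level, long-term CD14-IL1B had 1577 CPM of Cd14 and 2890 CPM of Il1b, above CD14-PF4 at 1335 and 1513 CPM. The highest long-term levels were 2288 and 4827 CPM, in Macro-M1. In short-term T22 CD14-IL1B had 311 and 1035 CPM, below CD14-PF4 at 1312 and 1868 CPM. In short-term T127 it had 1097 and 2276 CPM, against 2013 and 2096 CPM in CD14-PF4. These name genes were chosen after values had been seen. The label is called by its deposited name here, and no new cell type name is given to it.

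**Figure D1:**
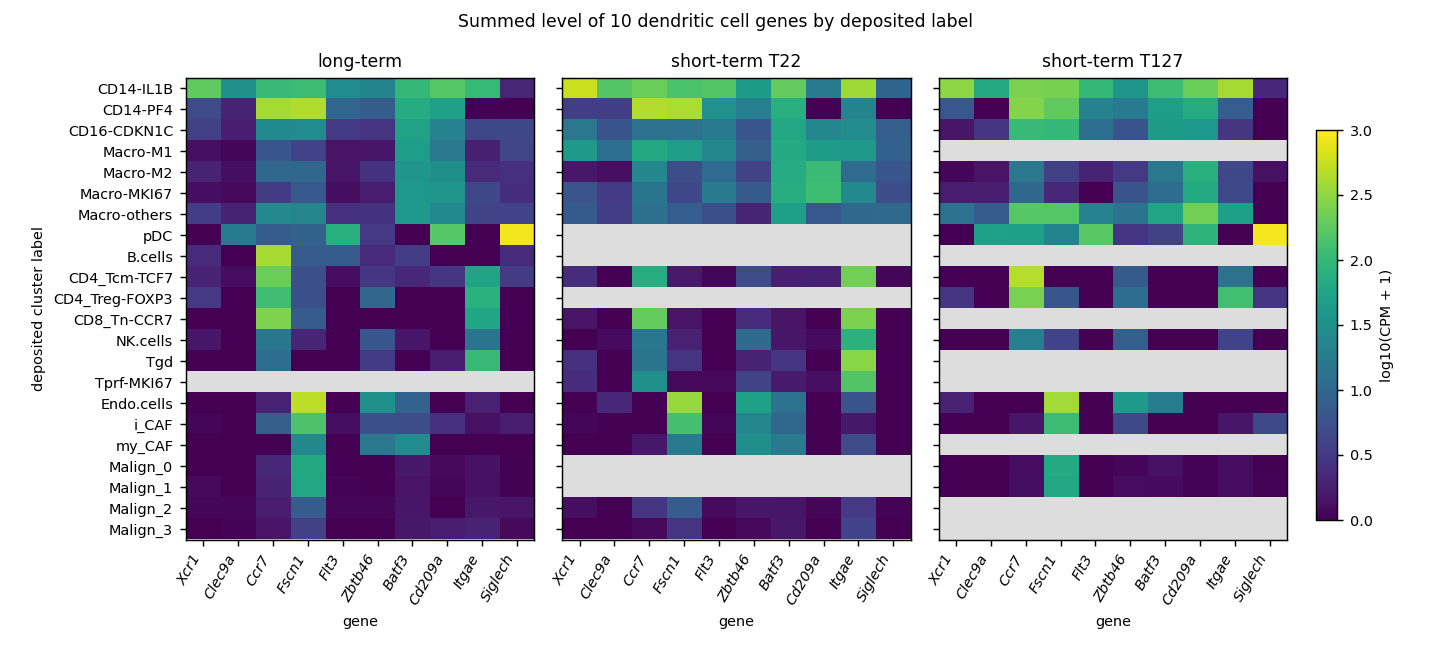
Heat map of the 10 genes (horizontal) in each deposited label (vertical) for the 3 experiments, colored by log10(CPM + 1) of the UMIs summed over all pools; grey rows are labels with under 50 cells. Xcr1 and Clec9a are brightest in CD14-IL1B. Siglech is brightest in pDC long-term (878 CPM) and in short-term T127, and pDC is a grey row in short-term T22. Fscn1 spreads over endothelial, fibroblast and malignant labels and is also high in CD14-PF4 (439 CPM long-term).

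Clec9a followed Xcr1 but was also present in pDC. In CD14-IL1B the long-term pools ran from 20.1 through 26.6 to 48.7 CPM, the short-term T22 pools were 116, 161, 176 and 167 CPM, and the short-term T127 pools were 82.4, 73.4, 70.4 and 50.8 CPM. In pDC the summed level was 16.1 CPM long-term, 41.7 in short-term T22 and 51.3 in short-term T127, and the pool ranges of the pDC and CD14-IL1B labels overlapped in all 3 experiments. In short-term T22 they overlapped only through pool 4, in which 6 pDC cells gave 122 CPM, while the other pools gave 32.8, 11.8 and 29.3 CPM. Xcr1 had 0 UMIs in the pDC label of every experiment, which allows up to 3.23 CPM long-term, 8.93 in short-term T22 and 2.85 in short-term T127. The Clec9a of pDC thus stood without Xcr1. Of the pDC-labelled cells, 12 of 170, 10 of 35 and 28 of 136 had a Clec9a UMI, and every such cell also had a Siglech UMI, as did 165 of 170, 33 of 35 and 132 of 136 of the pDC cells in all.

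Within CD14-IL1B, Clec9a was found almost wholly in cells that had Xcr1. Of the long-term CD14-IL1B cells with a Clec9a UMI, 96.2% also had Xcr1, against 17.4% of those without Clec9a. The same shares were 99.0% and 40.0% in short-term T22, and 96.8% and 16.0% in short-term T127. The CD14-IL1B cells with both genes had a median of 13157 UMIs long-term, 20205 in short-term T22 and 17006 in short-term T127, near the label medians of 13061, 19489 and 16693.

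Cells with UMIs of both Xcr1 and Clec9a numbered 135 long-term, 192 in short-term T22 and 65 in short-term T127. CD14-IL1B held 102, 97 and 61 of them, which was 22.9%, 67.8% and 42.4% of the cells of that label. The remaining long-term cells lay in Macro-others (16), CD16-CDKN1C (14) and Macro-M2 (3). In short-term T22, 57 cells carried the label Macro-M1, a macrophage name, 28 CD16-CDKN1C, 6 Macro-others, 2 Macro-MKI67 and 1 CD14-PF4. The Macro-M1 label of the long-term experiment held 0 such cells among 982, which allows a share of up to 0.305%. The 4 remaining short-term T127 cells were in Macro-others. Outside the 7 monocyte and macrophage labels a single cell was found, in the short-term T22 malignant label Malign_2, with 36403 UMIs; lymphoid labels held 0 of 2148, 0 of 4736 and 0 of 572 cells.

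**Figure D2:**
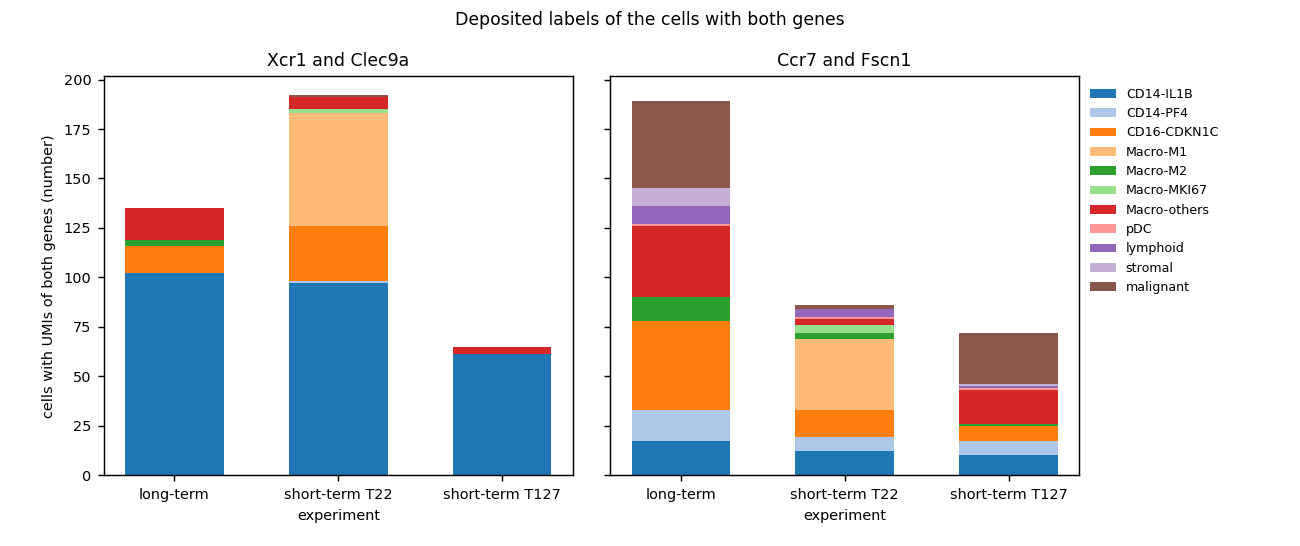
Stacked bars of the number of cells with UMIs of both Xcr1 and Clec9a (left) or both Ccr7 and Fscn1 (right) in each experiment, divided by deposited label, with lymphoid, stromal and malignant labels each merged. Cells with Xcr1 and Clec9a sit mainly in CD14-IL1B (102 of 135 long-term), whereas cells with Ccr7 and Fscn1 are spread over many labels and 44 of 189 long-term cells are malignant.

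Shares of cells with both Xcr1 and Clec9a depended on the cells they were set over. Of all cells they were 0.525% long-term (interval 0.440 to 0.621; pools 0.395 to 0.659), 1.27% in short-term T22 (1.10 to 1.46; pools 1.14 to 1.48) and 0.812% in short-term T127 (0.627 to 1.03; pools 0.738 to 0.913). The T22 pools were all above the T127 pools by this measure. Over cells of immune labels the order turned, with 1.51% in short-term T22 (pools 1.37 to 1.76) and 2.24% in short-term T127 (pools 2.05 to 2.41). Over monocyte and macrophage labels the shares were 0.874%, 2.43% and 2.95%, and the T22 and T127 pools overlapped, at 2.21 to 2.81 and 2.66 to 3.26. Malignant cells were 4878 of 8007 cells in short-term T127 and 1954 of 15094 in short-term T22.

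Depth entered these shares as well. When each cell was thinned to 3000 UMIs and shallower cells were left out, 34 long-term, 79 short-term T22 and 17 short-term T127 cells kept UMIs of both genes. The thinned shares over monocyte and macrophage labels were 0.256%, 1.53% and 0.820%, so short-term T22 was then above short-term T127. The thinning kept 13277 of 15451, 5176 of 7861 and 2073 of 2200 such cells. With 2 or more UMIs of each gene required at full depth, the shares of all cells were 0.229%, 1.02% and 0.562%. In long-term pools 4 to 8 alone the share of all cells was 0.523%, in pools 1 to 4 it was 0.493% and in pools 5 to 8 it was 0.555%.

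**Figure D3:**
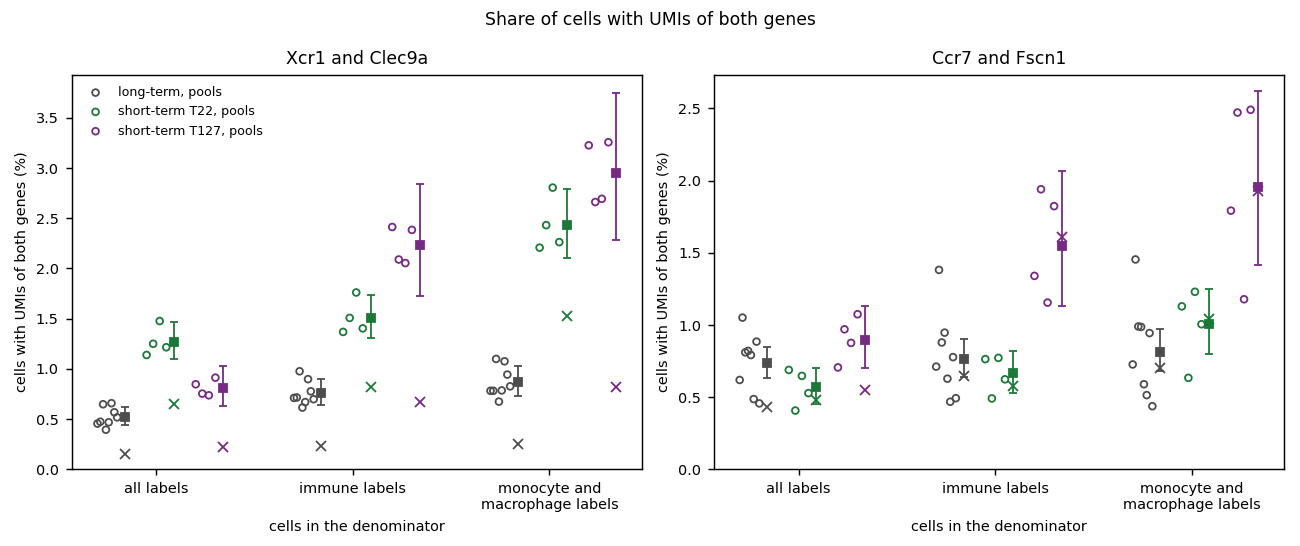
Percent of cells with UMIs of both genes for 3 denominators; open circles are pools, squares are all pools of an experiment with exact 95% intervals, and crosses are the shares after thinning to 3000 UMIs. For Xcr1 and Clec9a the short-term T22 square is above short-term T127 over all labels (1.27% and 0.812%) and below it over immune labels (1.51% and 2.24%).

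Ccr7, which naive and memory lymphocytes also use to enter lymph nodes, was high in lymphoid labels as well as in monocyte labels. Long-term B cells reached 409 CPM, at 733 CPM in pools 1 to 4 (388 to 1069, from 5 to 25 cells a pool) and 357 CPM in pools 5 to 8 (254 to 392, from 53 to 79 cells), the label CD8_Tn-CCR7 262 CPM and CD4_Tcm-TCF7 212 CPM. In CD14-PF4, a monocyte label of 98 cells, Ccr7 was 394 CPM, but the pools with at least 5 cells ran from 0 to 1117 CPM. Of its 98 cells 18 had a Ccr7 UMI and 16 of these had Fscn1 too, so few cells per pool set the level. In CD14-IL1B the long-term pools ran from 15.0 through 82.2 to 323 CPM, and the short-term T22 pools were 428, 62.4, 112 and 255 CPM. Lymphoid labels held 27.9% of all Ccr7 UMIs long-term, 43.6% in short-term T22 and 25.9% in short-term T127.

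Much of Fscn1 lay in tumor cells and stroma. Malignant labels held 53.7% of Fscn1 UMIs long-term, 8.74% in short-term T22 and 84.6% in short-term T127, and stromal labels 17.5%, 34.9% and 4.88%. Monocyte and macrophage labels held 28.5%, 53.7% and 10.3%, the largest part in short-term T22. In Malign_0, Fscn1 ran from 74.8 to 81.5 CPM in long-term pools 1 to 4 and from 53.6 to 58.8 CPM in pools 5 to 8, with no overlap, and was 65.6, 66.8, 70.1 and 63.8 CPM in the short-term T127 pools. Endothelial cells gave 497 CPM long-term (pools 227 to 869), 345 in short-term T22 (224 to 406) and 384 in short-term T127 (340 to 445). Inflammatory fibroblasts (i_CAF) gave 145, 128 and 114 CPM. In CD14-PF4, Fscn1 was 439 CPM long-term, with pools from 0 to 881, and 432 CPM in short-term T22, which was 251 CPM without pool 4.

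Cells with UMIs of both Ccr7 and Fscn1 numbered 189 long-term, 86 in short-term T22 and 72 in short-term T127. Monocyte and macrophage labels held 126, 79 and 43 of them, malignant labels 44, 2 and 26, and lymphoid labels 9, 4 and 1. In malignant labels the thinning to 3000 UMIs left 1, 2 and 1 cells, and in monocyte and macrophage labels it left 93, 54 and 40. The malignant cells of the long-term label Malign_0 with both genes had a median of 25495.5 UMIs, against 6455 in CD16-CDKN1C, the label with the most such cells. The cells in malignant labels are therefore left out of the comparisons of gene levels below. Over monocyte and macrophage labels the shares were 0.815% long-term (pools 0.438 to 1.45), 1.00% in short-term T22 (0.634 to 1.23) and 1.95% in short-term T127 (1.18 to 2.49). The pool ranges of T22 and T127 overlapped, and the thinned shares were 0.700%, 1.04% and 1.93%. Of all long-term cells, 0.824% had both genes in pools 1 to 4 and 0.652% in pools 5 to 8.

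The cells with Ccr7 and Fscn1 had no label of their own. In the long-term experiment 45 lay in CD16-CDKN1C, 36 in Macro-others, 17 in CD14-IL1B, 16 in CD14-PF4 and 12 in Macro-M2. In short-term T22, 36 lay in Macro-M1, 14 in CD16-CDKN1C and 12 in CD14-IL1B, and in short-term T127, 17 lay in Macro-others and 10 in CD14-IL1B. CD14-PF4 held 7 of them, among 66 cells, in short-term T22 and the same in short-term T127. As shares of a label they were 16.3%, 10.6% and 10.6% of CD14-PF4 and 3.81%, 8.39% and 6.94% of CD14-IL1B. The share of long-term CD16-CDKN1C was 0.753%. Both gene pairs were found in 1 long-term, 4 short-term T22 and 0 short-term T127 cells, counts too low to show whether the pairs avoid each other.

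The remaining 6 genes were then read in the cells picked by each pair, within the monocyte and macrophage labels. This left 134, 187 and 65 cells with Xcr1 and Clec9a, 125, 75 and 43 cells with Ccr7 and Fscn1, and 15191, 7595 and 2092 other cells, for long-term, short-term T22 and short-term T127. Cells with both pairs were left out. Median UMIs were 12616, 17285 and 16899 in the first class, 7711, 12349 and 9272 in the second, and 8836, 5758 and 10494 in other cells. The other cells still include dendritic-like cells in which a gene of the pair went undetected.

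Itgae separated the cells of the pairs. In cells with Xcr1 and Clec9a the long-term pools ran from 163 through 205 to 343 CPM, the short-term T22 pools were 355, 429, 482 and 416 CPM, and the short-term T127 pools were 737, 668, 714 and 782 CPM. Other monocytes and macrophages had 3.77, 16.5 and 13.2 CPM. The short-term T127 pools were all above the short-term T22 pools, which were all above the long-term pools. The long-term sets of pools did not overlap either, with 163 to 199 CPM in pools 1 to 4 and 210 to 343 CPM in pools 5 to 8. In cells with Ccr7 and Fscn1, Itgae was 3.84 CPM long-term and 2.45 CPM in short-term T127, each near the count floor, but 107 CPM in short-term T22, with pools of 146, 130, 79.3 and 87.6 CPM.

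Outside these cells, Itgae in short-term T22 lay mainly in T cells. Lymphoid labels held 72.1% of Itgae UMIs in short-term T22 and 6.48% in short-term T127. Short-term T22 gamma delta T cells (Tgd) had 291 CPM, CD8_Tn-CCR7 258 CPM and CD4_Tcm-TCF7 227 CPM (pools 210 to 247). CD4_Tcm-TCF7 had 12.3 CPM in short-term T127 (pools 0 to 25.4) and 55.6 CPM long-term (25.6 to 101), so its pools did not overlap between the T22 and either other experiment. In short-term T127 the highest lymphoid level was that of regulatory T cells (CD4_Treg-FOXP3), at 124 CPM.

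Flt3 was raised in both pairs and in pDC. In cells with Xcr1 and Clec9a it was 73.5 CPM long-term (pools 42.9 to 91.3), 186 in short-term T22 (167 to 210) and 180 in short-term T127 (143 to 200), and in cells with Ccr7 and Fscn1 it was 66.2 (22.04 to 113), 166 (126 to 230) and 162 (133 to 209). Other monocytes and macrophages had 1.10, 9.16 and 3.09 CPM. The pDC label gave 74.3 CPM long-term, 158 in short-term T22 and 168 in short-term T127. The long-term level was below both short-term levels in each of the 3 kinds of cell, with pools apart for Xcr1 and Clec9a cells and for Ccr7 and Fscn1 cells. In long-term cells with Ccr7 and Fscn1, Flt3 was 43.8 CPM in pools 1 to 4 and 93.3 CPM in pools 5 to 8, with overlapping pools. Median UMIs were also lower in the long-term cells of each pair. The part of depth, or of other differences between the experiments, in the Flt3 levels was not tested.

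Zbtb46 was higher in both pairs than in other monocytes and macrophages and low in pDC. It was 39.0, 42.9 and 51.2 CPM in cells with Xcr1 and Clec9a, 36.5, 65.4 and 78.4 CPM in cells with Ccr7 and Fscn1, and 1.82, 3.38 and 4.34 CPM in other cells. The pDC label had 2 UMIs long-term, 5 in short-term T22 and 2 in short-term T127, which gave 2.15, 14.9 and 1.90 CPM. Its highest label was nevertheless endothelium, a known site of Zbtb46, with 30.7 CPM long-term (pools 9.25 to 68.1), 51.1 in short-term T22 (11.6 to 62.3) and 39.8 in short-term T127 (29.1 to 44.6). The ranges overlapped those of CD14-IL1B in all 3 experiments.

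Batf3 was higher in the cells of both pairs but was also common in macrophages. Cells with Xcr1 and Clec9a had 234, 217 and 212 CPM and cells with Ccr7 and Fscn1 220, 161 and 265 CPM, while 23.6% of the other long-term monocytes and macrophages had a Batf3 UMI. The long-term cells with Ccr7 and Fscn1 had 182 CPM in pools 1 to 4 and 265 CPM in pools 5 to 8, with pools of 149 to 220 and 225 to 290 CPM. The level in these other cells was 41.1 CPM long-term (pools 36.7 to 46.2). It was 57.2, 60.6, 57.8 and 55.4 CPM in the short-term T22 pools and 16.7, 20.9, 22.6 and 15.1 CPM in the short-term T127 pools, so the pools of the 2 models did not overlap. The same held within Macro-M2, with 69.0 CPM in short-term T22 (pools 57.0 to 78.3) and 14.7 CPM in short-term T127 (12.6 to 16.6). Pools were also apart within CD14-IL1B (155 to 214 and 114 to 123 CPM) and CD16-CDKN1C (58.0 to 68.2 and 33.0 to 56.8 CPM). They overlapped within CD14-PF4, at 38.6 to 102 and 19.4 to 101 CPM. Macro-others had 58.5 CPM in short-term T127 (37.2 to 71.6), and in short-term T22 it ranked below CD16-CDKN1C, which had 61.1 CPM. The pDC label had 0 Batf3 UMIs long-term, which allows up to 3.23 CPM, 9 UMIs from 2 cells in short-term T22 and 3 UMIs from 1 cell in short-term T127.

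**Figure D4:**
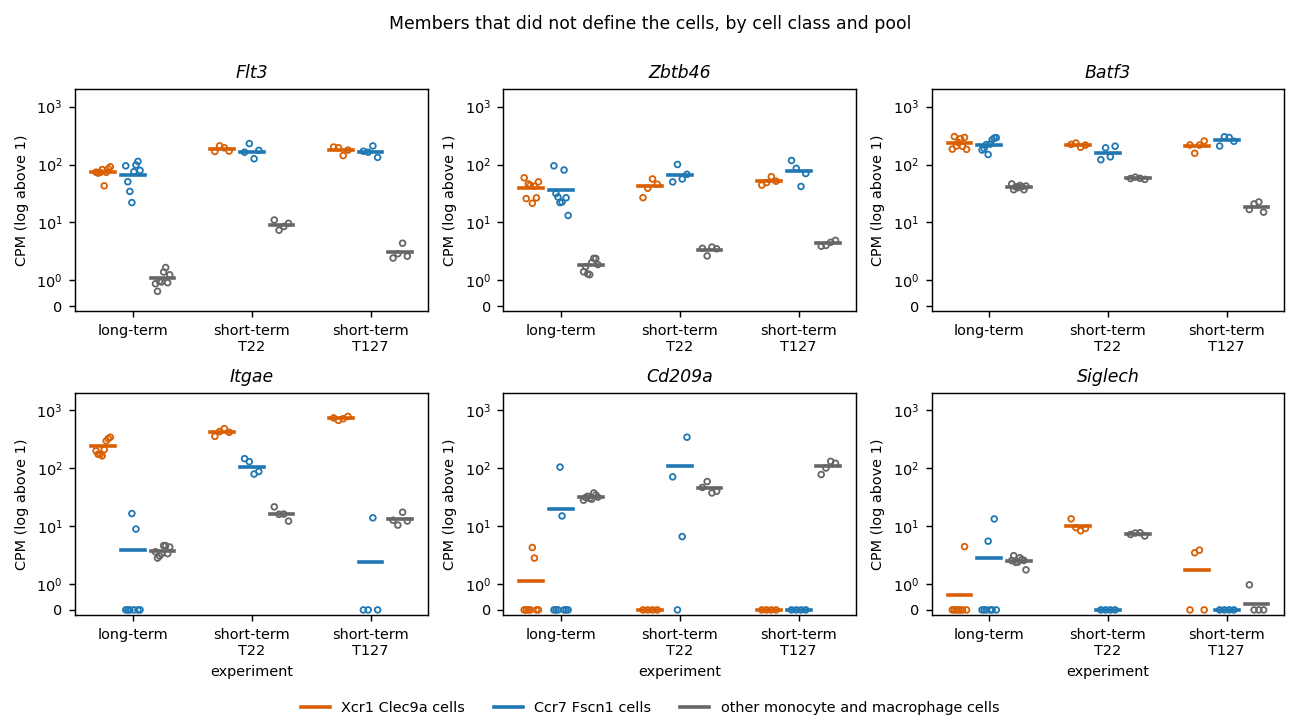
Levels of the 6 genes that did not define the cells, in CPM on an axis that is logarithmic above 1 and linear below it; circles are pools and bars are the sums over pools. Flt3, Zbtb46 and Batf3 were above other monocytes and macrophages in both pairs, Itgae chiefly in Xcr1 Clec9a cells (245 CPM against 3.77 long-term), and Cd209a was at or near 0 in Xcr1 Clec9a cells.

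Cd209a marked other cells than Xcr1 and Clec9a. It had 2 UMIs in the 134 long-term cells with Xcr1 and Clec9a, 0 in the 187 of short-term T22 and 0 in the 65 of short-term T127; a count of 0 allows up to 0.875 and 2.60 CPM. Other monocytes and macrophages had 32.0 CPM long-term, with 46.5, 58.8, 37.4 and 40.0 CPM in the short-term T22 pools and 77.8, 101, 131 and 122 CPM in the short-term T127 pools. Few cells carried that signal. Cells with at least 3 Cd209a UMIs, a limit set after values had been seen, numbered 365, 168 and 157 in monocyte and macrophage labels and held 89.6%, 93.7% and 93.3% of all Cd209a UMIs. They were 2.36%, 2.14% and 7.14% of the cells of those labels, and 0 of them had both Xcr1 and Clec9a in each experiment.

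Some genes of cDC2 were higher in the cells with at least 3 Cd209a UMIs and others were not. Mgl2, a lectin of that lineage, was 1145, 586 and 1148 CPM in them, against 94.6, 26.3 and 200 CPM in cells without Cd209a. The transcription factor Irf4 was 42.0, 95.4 and 141 CPM against 3.74, 8.36 and 28.3 CPM, and Zbtb46 was 13.2, 26.2 and 17.5 CPM against 2.06, 5.20 and 5.90 CPM. The lectin Clec10a was 103, 273 and 130 CPM against 17.4, 16.1 and 34.5 CPM. Sirpa, a receptor of cDC2 and of macrophages, was lower in them, at 78.0, 168 and 212 CPM against 149, 191 and 454 CPM. The integrin Itgax was 132 against 147 CPM long-term and 229 against 250 CPM in short-term T22, and it was higher, at 228 against 77.3 CPM, in short-term T127 alone. Flt3 was 6.28 CPM long-term, 72.4 in short-term T22 and 8.02 in short-term T127, against 2.32, 17.8 and 14.2 CPM without Cd209a. The cells without Cd209a include cells of both pairs. Monocytes and macrophages outside the pairs had 1.10, 9.16 and 3.09 CPM of Flt3. In T127 the 8.02 CPM was thus below the cells without Cd209a but above the cells outside the pairs. The summed level of 11 macrophage genes was 10517, 4574 and 4767 CPM against 30846, 24359 and 25361 CPM. Monocyte genes were mixed. Ccr2 was 68.9, 134 and 47.7 CPM against 19.9, 38.9 and 52.9 CPM, higher long-term and in short-term T22. Ly6c2 was 19.5, 78.9 and 79.1 CPM against 72.9, 35.5 and 455 CPM, higher in short-term T22 alone. These cells were spread over labels, with Macro-others (93) and Macro-M2 (88) leading in the long-term experiment and Macro-M2 leading in short-term T22 (51) and in short-term T127 (62).

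By label, Cd209a had no fixed place. CD14-IL1B had 164 CPM long-term (pools 68.7 to 259) and 208 in short-term T127 (95.3 to 347) but 16.4 in short-term T22, with pools of 4.34, 0, 25.2 and 40.1 CPM. In short-term T22 the levels were 117 CPM in Macro-MKI67 and 111 in Macro-M2, and in short-term T127 the highest was 227 CPM in Macro-others. The short-term T22 CD14-IL1B label was thus the one richest in Xcr1 and Clec9a and poorest in Cd209a of the 3. The pDC label also carried Cd209a, at 164, 208 and 89.4 CPM, and each of its 60, 22 and 33 cells with a Cd209a UMI also had Siglech.

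Siglech lay mainly in the pDC label except in short-term T22. In pDC the long-term pools ran from 688 through 882 to 1035 CPM, the short-term T22 pools were 579, 580, 1143 and 1094 CPM from only 6 to 12 cells each, and the short-term T127 pools were 701, 1021, 890 and 1024 CPM. A Siglech UMI was found in 165 of 170, 33 of 35 and 132 of 136 pDC cells. The pDC label held 67.5% of Siglech UMIs long-term, 36.6% in short-term T22 and 95.7% in short-term T127. The study's methods name Clec10a, Siglec and Cd300c as genes by which the pDC label was assigned. The levels of Cd300c there, and of Siglech if it is the Siglec meant, thus in part restate how the label was made. Ccr9 is not among those genes. Other pDC genes were high in that label too. Ccr9, a homing receptor, was 1159, 953 and 1767 CPM in it against at most 1.34 CPM in other monocytes and macrophages, and the surface receptor Cd300c was 319, 301 and 352 CPM.

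A low level of Siglech was also present in the monocytes and macrophages of short-term T22. It was 7.18, 7.62, 7.71 and 6.78 CPM in the 4 pools, from 448 UMIs, against 0.97, 0, 0 and 0 CPM in short-term T127, from 6 UMIs, and 2.52 CPM long-term. In short-term T22 4.33% of those cells had a UMI at a median of 5758 UMIs per cell, and 0.173% of malignant Malign_2 cells did at a median of 25194.5. Cells with Xcr1 and Clec9a had 9.92 CPM of Siglech in short-term T22, from 34 UMIs, and 1.74 CPM in short-term T127, from 2 UMIs. The pDC label held 35 cells in short-term T22 and 136 in short-term T127. Of the cells outside the pDC label with Siglech in short-term T22, 4 of 360 had 5 or more UMIs.

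Across all genes, the cells of each pair were set against other monocytes and macrophages, as 1 summed sample each and so without a test. A gene was called higher or lower at a 2-fold ratio of (CPM + 1), among genes whose mean of both levels was at least 10 CPM. The genes that define the pairs were left out of every list. For cells with Xcr1 and Clec9a, 6.65% of 6576 genes were called higher long-term, 6.4% of 7231 in short-term T22 and 6.3% of 7382 in short-term T127, and 16.5%, 13.1% and 17% were called lower. For cells with Ccr7 and Fscn1, 10.1%, 10.3% and 14% were called higher and 20.5%, 19.5% and 35.8% lower. The median log2 ratio of all genes tested was -0.11, -0.10 and -0.13 in the first class and -0.29, -0.27 and -0.50 in the second.

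The cDC1 genes were higher in cells with Xcr1 and Clec9a in all 3 experiments. The 15 listed genes were chosen with earlier results of these data known. Of them, 14 of 15 tested were called higher long-term, 14 of 15 in short-term T22 and 12 of 14 in short-term T127. Of all genes 6.65%, 6.4% and 6.3% were called higher. The listed genes had median log2 ratios of 3.05, 3.61 and 3.43, and none was called lower. Irf8 was 1656 CPM against 236 long-term, 1460 against 343 in short-term T22 and 2447 against 170 in short-term T127. Naaa, a lysosomal lipid amidase, was 1629 against 86.0 CPM long-term, and Ppt1, a lysosomal thioesterase, 1351 against 193. Wdfy4, which cDC1 need to cross-present, was 281, 734 and 832 CPM against 23.5, 49.1 and 71.4 CPM. Cadm1, an adhesion molecule, was not called in the long-term (36.2 against 28.1 CPM) or short-term T22 cells (44.9 against 42.7 CPM).

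Of the list of cross-presentation genes and migration partners, 3 of 6 tested were higher and 1 lower long-term, 4 of 8 and 1 in short-term T22, and 3 of 7 and 1 in short-term T127. Of all genes in these cells 6.65%, 6.4% and 6.3% were higher and 16.5%, 13.1% and 17% lower, so the 1 lower gene was near the share of all genes. Tap1 and Tap2, which carry peptides to class I molecules, were higher in all 3 experiments, with Tap1 at 177, 177 and 331 CPM against 53.9, 76.3 and 99.3 CPM. Rab43, a trafficking protein of cross-presentation, was 56.8, 133 and 154 CPM against 16.0, 40.8 and 32.7 CPM. Cybb, the phagocyte oxidase subunit, was 12.6 CPM long-term against 732 and 15.8 in short-term T22 against 1167, and had 0 UMIs in short-term T127 against 626 CPM. Of 10 class II genes, 2 of 9 tested were called higher long-term, 2 of 10 in short-term T22 and 4 of 9 in short-term T127, and none was called lower. H2-Ab1 was 12368 against 11576 CPM long-term and 13815 against 6724 CPM in short-term T127. The summed class II genes were 44695 against 39170 CPM long-term, with overlapping pools, and 34783 against 17604 CPM in short-term T127. In short-term T22 the sum was lower, at 33724 CPM (pools 32630 to 34819) against 39240 CPM (38607 to 40198). H2-Oa, a modulator of class II loading, was higher in each experiment, at 176, 149 and 117 CPM against 23.2, 35.1 and 15.6 CPM.

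Macrophage genes were low in cells with Xcr1 and Clec9a. All 11 genes of the list were called lower in each experiment, with median log2 ratios of -5.02, -4.98 and -6.73, and their summed level was 1130, 1031 and 483 CPM against 30492, 24976 and 24219 CPM. The long-term value was 558 CPM in pools 1 to 4 and 1524 CPM in pools 5 to 8. C1qa, a complement subunit, was 190, 122 and 8.68 CPM against 8888, 6537 and 3602 CPM. This held inside labels with macrophage names: in short-term T22 the 56 cells of this class labelled Macro-M1 had 1151 CPM of macrophage genes against 26209 CPM in the other cells of that label, and 7870 CPM of cDC1 genes against 1170 CPM. Monocyte genes were lower for 7 of 8 long-term, 6 of 7 in short-term T22 and 8 of 8 in short-term T127. Of all genes in cells with Xcr1 and Clec9a, 16.5%, 13.1% and 17% were called lower and 6.65%, 6.4% and 6.3% higher. Proliferation genes were called higher for 2 of 5 long-term genes and for none of 5 in either short-term experiment, where Mki67 was 236 against 237 CPM in T22 and 214 against 196 CPM in T127.

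Genes of other dendritic cells are read here beside the shares of all genes called in cells with Xcr1 and Clec9a, 6.65%, 6.4% and 6.3% higher and 16.5%, 13.1% and 17% lower. Of the cDC2 list, 1 of 9 tested was higher and 4 lower long-term, 1 of 10 and 5 in short-term T22, and 0 of 10 and 6 in short-term T127. Sirpa, a receptor of cDC2 and of macrophages, was 4.02, 2.33 and 0 CPM against 149, 203 and 449 CPM. The cells it was set against were monocytes and macrophages, so this ratio does not speak to cDC2 alone. Of the mature dendritic cell list, 2 of 15 were higher and 5 lower long-term, 2 of 16 and 2 in short-term T22, where the share lower was near that of all genes, and 0 of 16 and 7 in short-term T127. Of the pDC list, 1 of 5 tested was higher and 1 lower long-term, 3 of 6 and 1 in short-term T22, and 1 of 5 and 2 in short-term T127, where the lower genes were the transcription factor Tcf4 (37.3 against 126 CPM) and Plac8 (201 against 694 CPM). The 1 of 5 pDC genes lower long-term and the 1 of 6 lower in short-term T22 were near the shares of all genes. The summed level of the 13 pDC genes was 1770 against 1546 CPM long-term, 1230 against 876 CPM in short-term T22 and 1215 against 1614 CPM in short-term T127. The homing receptor Ccr9 was 26.0 CPM in short-term T22 against 1.34 CPM in other cells.

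Cells just inside the Xcr1 and Clec9a rule were like those well inside it in these lists, and cells just outside it were not. Long-term cells with exactly 1 UMI of either gene (76 cells) had 958 CPM of macrophage genes and 7412 CPM of cDC1 genes, and those with at least 2 UMIs of each (58 cells) had 1315 and 7889 CPM. Cells with only 1 of the genes, which the rule puts among other cells, numbered 145 long-term, 98 in short-term T22 and 41 in short-term T127 and had 4898, 3793 and 4994 CPM of cDC1 genes, between the 7643, 8657 and 11204 CPM of cells with both and the 1049, 1154 and 1980 CPM of other cells. They had 12712, 11380 and 11832 CPM of macrophage genes, against 1130, 1031 and 483 CPM in cells with both.

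Summed markers of cells outside the myeloid lineage rested on few UMIs in the cells of each pair, and single pools set several of them. T and NK cell genes summed to 25.8, 48.7 and 9.55 CPM in cells with Xcr1 and Clec9a and to 59.5, 78.9 and 12.3 CPM in cells with Ccr7 and Fscn1, against 53.6, 55.6 and 26.3 CPM in other monocytes and macrophages. Pool 4 held 24 of the long-term UMIs in cells with Ccr7 and Fscn1, and without it the level was 44.2 against 54.6 CPM. Without long-term pool 2 it was also below, at 53.2 against 55.0 CPM. In short-term T22, leaving out pool 4 gave 53.4 CPM for cells with Ccr7 and Fscn1 and 58.7 CPM for cells with Xcr1 and Clec9a, against 56.8 CPM, so both directions turned. The 25.8 CPM of long-term cells with Xcr1 and Clec9a was 12.6 CPM without pool 5. Endothelial genes summed to 6.32, 8.75 and 6.95 CPM in cells with Xcr1 and Clec9a and to 17.3, 36.3 and 7.35 CPM in cells with Ccr7 and Fscn1, against 14.7, 12.9 and 37.1 CPM. Of the long-term UMIs in cells with Ccr7 and Fscn1, 10 came from pool 5, without which the level was 8.81 against 14.2 CPM, and in short-term T22 the level was 21.2 CPM without pool 3. The short-term T127 level rested on 3 UMIs, all of pool 2.

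Fibroblast genes summed to 52.2, 51.6 and 18.2 CPM in cells with Xcr1 and Clec9a and to 189, 54.0 and 31.9 CPM in cells with Ccr7 and Fscn1, against 120, 115 and 42.0 CPM in other cells. The long-term value of 189 CPM came mainly from pool 4, with 134 UMIs and 738 CPM. Without that pool it was 73.2 CPM and below the 118 CPM of other cells. The short-term T127 value of cells with Xcr1 and Clec9a was 11.6 CPM without pool 2. Epithelial genes summed to 127.5, 181 and 66.0 CPM in cells with Xcr1 and Clec9a and to 108, 348 and 14.7 CPM in cells with Ccr7 and Fscn1, against 216, 188 and 327 CPM. The short-term T22 value of 348 CPM came mainly from Epcam, at 326 CPM, a gene that the cDC2 list also holds. The 181 CPM of short-term T22 cells with Xcr1 and Clec9a was level with other cells, at 180 against 178 CPM without pool 1 and 193 against 192 CPM without pool 2, and the 66.0 CPM of short-term T127 was 31.2 CPM without pool 2. The 14.7 CPM of short-term T127 cells with Ccr7 and Fscn1 was 22.6 CPM without pool 4. B cell genes summed to at most 6.23 CPM in either class, against 12.3, 15.1 and 14.3 CPM. The part of these markers in the results was not tested.

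Among all genes with at least 100 UMIs in the long-term cells with Xcr1 and Clec9a, Itgae, Gcsam, Sept3, Snx22, Gm11837, Btla, Ttc39a, Ifi205, Gpr141b and Flt3 had the largest ratios, from 51.6 for Itgae to 35.4 for Flt3, and each was higher in 8 of 8 long-term, 4 of 4 short-term T22 and 4 of 4 short-term T127 pools. Btla, an inhibitory receptor, was 83.2, 85.2 and 79.9 CPM in these cells. Gpr141b, an orphan receptor, was 71.8, 104 and 87.7 CPM.

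**Figure D5:**
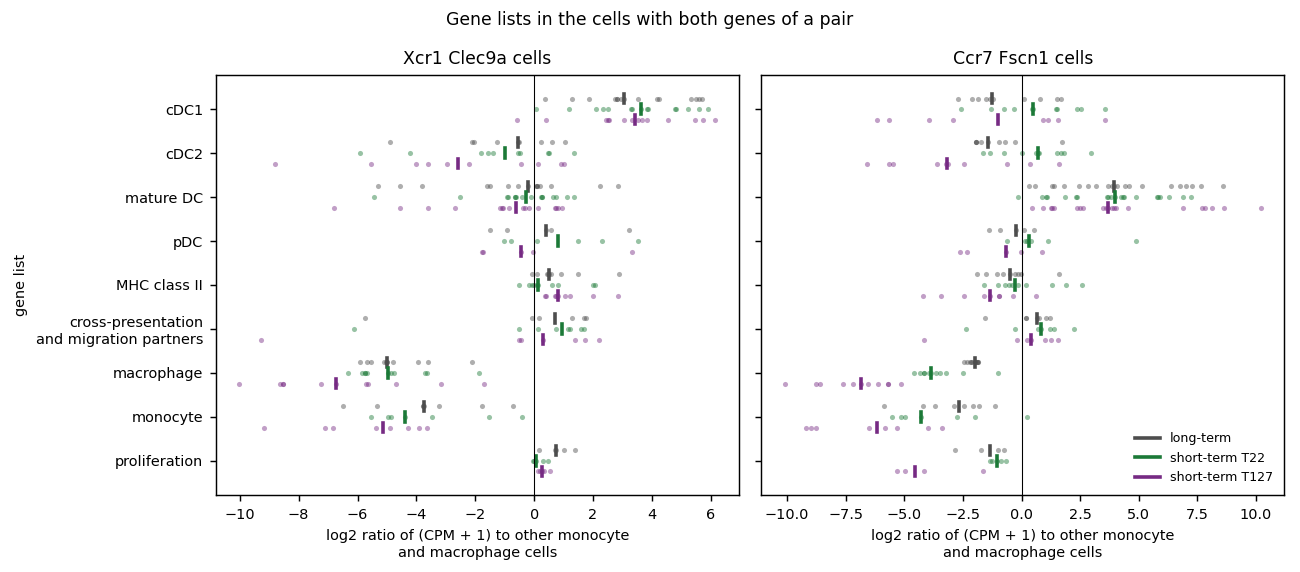
Log2 ratio of (CPM + 1) in cells of each pair to other monocytes and macrophages; points are the tested genes of each list, vertical ticks are list medians, and colors are experiments. cDC1 genes are shifted up in Xcr1 Clec9a cells (median 3.05 long-term) and mature DC genes in Ccr7 Fscn1 cells (median 3.93 long-term), while macrophage and monocyte genes are shifted down in both.

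Cells with Ccr7 and Fscn1 carried the genes of dendritic cell maturation. Of all genes in these cells 10.1%, 10.3% and 14% were called higher and 20.5%, 19.5% and 35.8% lower. Of 21 listed genes, chosen with earlier results of these data known, 19 were called higher in each experiment and none lower. Their median log2 ratios were 3.93, 3.99 and 3.69. The exceptions were Cd86 and Anxa3 long-term, Cd86 and Marcks in short-term T22, and Ccl17 and Anxa3 in short-term T127. Ccl5, a chemokine that attracts T cells, was 14811, 5195 and 12895 CPM against 176, 85.7 and 109 CPM. Ccl22, a chemokine that attracts regulatory T cells, was 1252, 991 and 5493 CPM against 2.24, 17.0 and 18.9 CPM. Il12b, a subunit of interleukin 12, was 1489, 1501 and 2212 CPM, and Tmem123, a surface mucin, 1391, 2078 and 2413 CPM. Genes for ligands of the inhibitory receptor PD-1 were also higher: Cd274 was 158, 185 and 463 CPM against 16.6, 13.9 and 40.3 CPM, and Pdcd1lg2 was 145, 47.8 and 198 CPM against 5.16, 2.51 and 15.3 CPM.

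The summed class II genes were lower in these cells in each experiment, at 25223, 28479 and 8335 CPM against 39170, 39240 and 17604 CPM, and the summed cDC1 genes were higher, at 1857, 2364 and 4738 CPM against 1049, 1154 and 1980 CPM. The calls of single genes were less even. H2-DMa, which helps load class II molecules, was 225, 346 and 71.1 CPM against 646, 693 and 783 CPM, and was called lower in each experiment. Class II genes were lower for 3 of 9, 2 of 10 and 5 of 9 tested, beside 20.5%, 19.5% and 35.8% of all genes, and higher for 1, 3 and 0, beside 10.1%, 10.3% and 14%. In short-term T22 the share of class II genes called lower was thus near that of all genes and more were called higher than lower. Of the cDC1 list, 2 of 10 tested were higher and 6 lower long-term, 5 of 11 higher and 2 lower in short-term T22, and 3 of 8 higher and 4 lower in short-term T127. Fewer were thus higher than lower in the long-term and short-term T127 cells although the sums were higher. That order was also the order of all genes, at 10.1% and 20.5% long-term and 14% and 35.8% in short-term T127. In short-term T127 the 3 of 8 higher was above the share of all genes. In short-term T22 the 2 of 11 lower was near the 19.5% of all genes. Irf8 was 684, 480 and 2036 CPM, called higher long-term and in short-term T127, and the transcription factor Id2 was higher in each experiment. Of the cross-presentation and migration list, 2 of 7, 3 of 7 and 2 of 7 tested were higher and 1 lower in each. Monocyte genes were lower for 8 of 8, 6 of 7 and 8 of 8 tested, and macrophage genes for 11, 10 and 11 of 11. Proliferation genes were lower for 2 of 4, 3 of 5 and 4 of 4 tested.

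Cells with Ccr7 and Fscn1 differed between experiments in what else they held. In short-term T127 the summed level of 11 macrophage genes was 71.1 CPM (pools 48.9 to 94.5) against 24219 CPM in other cells. It was 1656 CPM in short-term T22 (pools 359 to 3303, and 902 CPM without pool 3) and 7244 CPM long-term (pools 1790 to 13489). Long-term cells with exactly 1 UMI of Ccr7 or Fscn1 (16 cells) had 19729 CPM of macrophage genes and 5916 CPM of mature DC genes, and those with at least 2 of each (109 cells) had 4875 and 30605 CPM, so the cells just inside the rule had more macrophage and fewer mature dendritic cell UMIs. Cells with a UMI of 1 gene of the pair only (743 long-term) had 26092 CPM of macrophage genes. By label, the macrophage genes of long-term cells with both genes ran from 2343 CPM in CD16-CDKN1C to 17109 CPM in Macro-M2. Fibroblast genes in these long-term cells summed to 189 CPM (pools 47.4 to 738) against 120 CPM in other cells, with 272 CPM in pools 1 to 4 and 89.1 CPM in pools 5 to 8, and were 73.2 CPM without pool 4. The part of RNA from other cells in the long-term levels was not tested.

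In short-term T22 some genes of other dendritic cells were found in the cells with Ccr7 and Fscn1. Besides Itgae at 107 CPM they had Cd209a at 109 CPM, but with pools of 71.0, 0, 6.61 and 343 CPM, from 7 of 75 cells. Irf4 was 102 CPM against 12.2 and was called higher there, whereas it was 13.4 against 5.46 CPM long-term and 58.8 against 45.8 CPM in short-term T127 and was not called. Of the cDC2 list, 4 of 11 tested genes were higher and 2 lower in short-term T22, 1 of 9 and 5 long-term, and 1 of 10 and 7 in short-term T127. Of all genes 10.3%, 10.1% and 14% were higher and 19.5%, 20.5% and 35.8% lower in short-term T22, long-term and short-term T127 cells, so 2 of 11 lower in short-term T22 and 1 of 9 higher long-term were near the shares of all genes. The summed cDC2 genes of short-term T22 were 1278 against 936 CPM, and 952 against 835 CPM without Epcam. Of the pDC list, 2 of 6 were higher and 0 lower in short-term T22, 0 of 5 and 1 long-term, and 0 of 5 and 2 in short-term T127. The 1 of 5 lower long-term and the 2 of 5 lower in short-term T127 were near the shares of all genes. Whether the experiments differ in these genes was not tested.

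The largest ratios in long-term cells with Ccr7 and Fscn1 were those of Ccl22 (387), Gm13546 (310), Serpinb6b (280), Nudt17 (199), Il12b (155), Cacnb3 (131), Tnfrsf4 (115), Il4i1 (109), Ly75 (101) and Serpinb9 (88.1). All 10 were higher in every pool of every experiment. Serpinb9, an inhibitor of granzyme B, was 785, 388 and 2056 CPM, and Tnfrsf4, the costimulatory receptor OX40, was 373, 234 and 458 CPM.

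Some members were alike in their pattern over labels and others were not. Over 52 combinations of label and experiment with at least 50 cells, the Pearson correlation of log2(CPM + 10) was computed with each of 15015 genes, as a description over points that share libraries and cells. Xcr1 was most like Gpr141b (0.98), Sept3 (0.96) and Gm38410 (0.93), and Clec9a most like Ffar4, Flt3 and Btla (0.87 to 0.89). Flt3 was most like Olfr433, Tbc1d8 and Clec9a (0.89 to 0.93). Cd209a was most like Clec10a (0.95), 9830107B12Rik and Cfp, and Siglech most like Cd300c (0.99), Atp2a1 and Foxr1. Cd300c is among the genes that the study's methods name for assigning pDC, so its likeness to Siglech in part restates the label. Batf3 was most like Tbc1d9, Hfe and Amz1 (each 0.92). Fscn1 was most like Nav1, Npr1 and Ece1 (0.74 to 0.78) and Zbtb46 like Zfp366, Dgkh and Ece1 (0.79 to 0.80). Ccr7 was most like N4bp2l1, Traf1 and Itga4 (0.75 to 0.85) and Itgae like Sema4f, Gstp3 and Grap2 (0.81 to 0.87). Between the genes of a pair the correlation was 0.85 for Xcr1 and Clec9a but 0.10 for Ccr7 and Fscn1.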

How the data were processed

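Single-cell RNA-seq of tagged, pooled tumors was processed by the authors with Cell Ranger 6.0.0 against GRCm38, followed by their filters on cells and removal of doublets. The raw UMI counts of genes in cells that they deposited by pool were used as given, as was their cluster label for each cell; their normalized tables were not used here. The counts were summed per label and experiment and scaled per 1000000 UMIs; the deepest copy of long-term barcodes shared between pools was kept. Pool values needed at least 5 cells of a label, and the order of labels used labels with at least 50 cells. Zero counts were given with a floor of 3 counts. Exact Poisson (levels) and Clopper-Pearson (shares) intervals at 95% cover counting error only. Cells in the 7 monocyte and macrophage labels with both genes of a pair were compared with the rest by ratios of CPM with a pseudocount of 1 among genes with a mean of at least 10 CPM, with a 2-fold limit; with 1 summed sample a class there was no test.

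The 10 genes and the 14 gene lists (136 genes) were chosen with earlier results of these data known. Named genes were these 10, the 2 to 4 genes of a list with the highest CPM in the cells described, the 3 genes most like each member among those with at least 200 UMIs, and the 10 with the largest ratios among genes with at least 100 UMIs in the long-term cells of a pair; other list genes named in the text were chosen after their values were seen. The ratio and likeness steps were tested on simulated data with known answers. Computations used numpy 2.4.6, pandas 2.3.3, scipy 1.17.1 and matplotlib 3.10.9 under Python 3.11.15. Mouse sequences and coordinates were not used here. Per the labels tumors were tagged with CellPlex oligos, and per the study's methods with hashtag antibodies; the tags of single cells were not analysed here.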

Additional observations from a re-analysis of the deposited data

Results flagged for a closer look

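Pool values were set against the other pools of their experiment by Dixon's test at 95% in 36 groups, of which chance flags about 1 in 20; 3 were flagged. Zbtb46 in endothelial cells was 68.1 CPM in long-term pool 6, against a median of 24.2 CPM over the pools. Zbtb46 in endothelial cells was 11.6 CPM in short-term T22 pool 3, against a median of 61.2 CPM. Flt3 in CD14-IL1B was 200.2 CPM in short-term T22 pool 2, against a median of 141 CPM.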

How the results depend on the processing

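No paired analysis was possible because the results come from no test and the pools of different experiments hold different tumors. Shares of cells with Xcr1 and Clec9a (long-term, short-term T22, short-term T127) were 0.152%, 0.654% and 0.223% after thinning, 0.760%, 1.51% and 2.24% over immune labels, 0.874%, 2.43% and 2.95% over monocyte and macrophage labels, and 0.229%, 1.02% and 0.562% with at least 2 UMIs of each gene; with at least 1000 genes per cell the T22 share was 1.50%. Shares with Ccr7 and Fscn1 were 0.434% (long-term) and 0.552% (T127) after thinning, 1.55% (T127) over immune labels, 1.00% (T22) and 1.95% (T127) over monocyte and macrophage labels, and 0.459% (long-term) and 0.587% (T127) with at least 2 UMIs of each. The denominators over monocyte and macrophage labels the long-term pools 4 to 8, 1 to 4 or 5 to 8 alone and the sums of other cells' markers without each pool, or of cDC2 genes without Epcam, were chosen after seeing the data; for Xcr1 and Clec9a these sets of pools gave 0.523%, 0.493% and 0.555% of cells, and for Ccr7 and Fscn1 0.686%, 0.824% and 0.652%. Without the filter on low values, genes higher in Xcr1 Clec9a cells went from 437, 463 and 465 to 882, 842 and 966, and in Ccr7 Fscn1 cells from 673, 744 and 1009 to 1262, 1494 and 1992, since more genes were tested. Leaving out 1 pool at a time, each of these shares stayed within the spread between pools and each count within 1.5 times its value. A share over the remaining pools is an average of those pools, so it could hardly leave that spread. Staying within it therefore says little about how firm the shares are. Of 290 alternative values of member levels at their leading labels, 286 stayed within the spread between pools. Of the 290, 160 were levels with 1 pool left out, for which the same limit holds. Pools 1 to 4 alone moved Ccr7 in long-term B cells from 409 to 733 CPM. The mean over cells moved Cd209a in Macro-others of short-term T127 from 227 to 149 CPM and Batf3 in CD14-IL1B of short-term T127 from 118 to 113 CPM. It also moved Siglech in Macro-others of short-term T22 from 9.86 to 11.1 CPM. The spread used here is not the range of pools. The moved Ccr7 and Siglech values lay inside their ranges, which were 254 to 1069 CPM and 8.63 to 11.5 CPM. Shares of cells with both genes rest on few UMIs, so cells below detection are counted as lacking a gene.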
